A study of Mus musculus with 12 samples.

Results

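Cyp2b10, Cyp2b9 and Cyp2b13 are the 3 members of the Cyp2b drug-metabolising enzyme family described here in mouse liver after exposure to secondhand smoke (SHS). They were read by all probe sets (the groups of short probes that measure a transcript) that name one of these genes in the platform's probe-to-gene table. This gave 5 probe sets of the 45037 tested, of which 3 name Cyp2b10, 1 names Cyp2b9 and 1 names Cyp2b13, and 0 of the 5 name a second gene. The genes were chosen from measured values, namely the Cyp2b signals in SHS-exposed, recovered and control livers known from earlier results of these same arrays, so their differences between groups are given as a description with no test. All mice were C57BL/6 males that were adult at the start and ate a standard diet. The 4 control mice (replicates 1 to 4) breathed filtered clean air as sham treatment, the 4 SHS4m mice (replicates 66 to 69) were killed at the end of 4 months of SHS, and the 4 SHS4m+1m recovery mice (replicates 70 to 73) had 1 further month in clean air after the same exposure. Controls with and without a recovery month were both kept in the study, and the labels do not say which of these the 4 control arrays hold, so an age difference of 1 month from one of the SHS groups cannot be told apart from the exposure. Each array is taken as 1 mouse, and the p-values given for other genes measure the spread between these arrays.

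Cytochromes P450 of the CYP2B family are haem enzymes of the endoplasmic reticulum that oxidise drugs, steroids and environmental chemicals. In mouse liver Cyp2b10 is the classical target of the constitutive androstane receptor CAR, a nuclear receptor that enters the nucleus after exposure to phenobarbital-like compounds, and the related receptor PXR shares many of its targets. Cyp2b9 and Cyp2b13 are known as female-biased liver genes, held low in males by the male pattern of growth hormone.

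The 3 genes lie side by side on chromosome 7, in the order Cyp2s1, Cyp2b10, Cyp2b13, Cyp2b9 among protein-coding genes, and the sequence just upstream of each is shown because it tells how alike these neighbours are where transcription starts. Each run is the 250 bases before a RefSeq transcript start of the gene in build GRCm38.p6, on the + strand, at chr7:25897408-25897657 for Cyp2b10, chr7:26173159-26173408 for Cyp2b9 and chr7:26061245-26061494 for Cyp2b13. RefSeq also begins the gene span of Cyp2b9 and of Cyp2b13 inside the window shown, upstream of the start used here. Capitals in Cyp2b10 mark 3 kinds of letter match. ATAAAA resembles the TATA box that places the start of transcription. The letters GCGTG, which read CACGC on the other strand, form the core bound by the aryl hydrocarbon receptor AhR. The third match, TTGCATAA, resembles the sites of C/EBP factors. Capitals in Cyp2b9 and Cyp2b13 mark the nuclear receptor half-site AGGTCA.
Cyp2b10: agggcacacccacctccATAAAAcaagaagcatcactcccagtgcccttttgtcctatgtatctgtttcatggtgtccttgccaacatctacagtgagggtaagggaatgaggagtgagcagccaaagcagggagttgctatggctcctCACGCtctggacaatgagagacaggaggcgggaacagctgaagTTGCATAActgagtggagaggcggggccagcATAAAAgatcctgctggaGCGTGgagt
Cyp2b9: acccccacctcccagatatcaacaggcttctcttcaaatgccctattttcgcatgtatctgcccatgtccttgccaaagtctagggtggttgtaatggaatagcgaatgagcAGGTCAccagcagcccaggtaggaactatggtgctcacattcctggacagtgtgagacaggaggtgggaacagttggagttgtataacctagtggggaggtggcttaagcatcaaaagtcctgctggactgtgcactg
Cyp2b13: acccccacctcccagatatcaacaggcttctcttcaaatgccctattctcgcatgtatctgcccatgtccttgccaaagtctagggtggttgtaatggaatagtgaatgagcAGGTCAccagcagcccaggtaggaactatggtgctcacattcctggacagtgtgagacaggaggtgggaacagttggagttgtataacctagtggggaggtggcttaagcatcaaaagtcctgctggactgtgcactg

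The windows of Cyp2b9 and Cyp2b13 were identical at 248 of 250 bases, and the differences were T48C and C104T, with the Cyp2b9 base first and positions counted from the first base of the window. Cyp2b10 matched either of them at 182 of 240 aligned bases (75.8%). Cyp2b10 held ATAAAA at 27 to 22 and at 233 to 228 bases before its start, TTGCATAA at 58 to 51, and the AhR core at 9 to 5 and, on the other strand, at 101 to 97. None of these was found on either strand in the windows of Cyp2b9 and Cyp2b13, whose AGGTCA lay 138 to 133 bases before the start. Of 32851 promoter windows of this length, 17% held ATAAAA, 28.2% GCGTG, 0.694% TTGCATAA and 14% AGGTCA. A direct repeat of nuclear receptor half-sites spaced as in known CAR sites was in 0.103% of all windows and in none of these 3, which says only that these letters are not in this window. The enhancer through which CAR is known to act on Cyp2b10 lies further upstream than the bases shown. The windows of Cyp2b19 and Cyp2b23, of the same family, also held ATAAAA, TTGCATAA and AGGTCA, but not the AhR core.

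**Figure D1:**
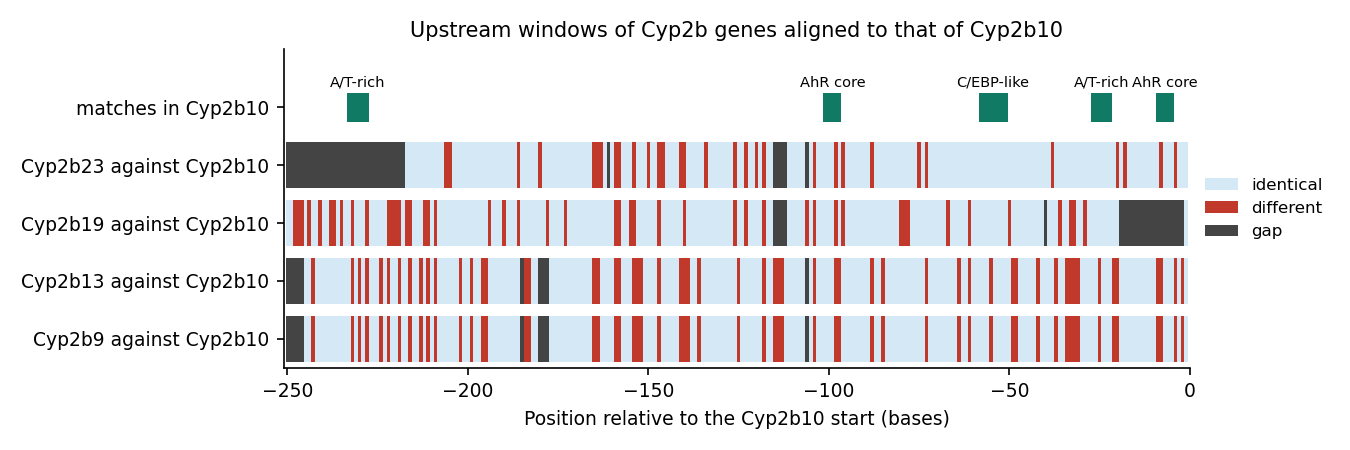
Each upstream window aligned to that of Cyp2b10, by position before the Cyp2b10 start in bases (x axis). Pale blue marks identical bases, red different bases and dark grey gaps, and green blocks mark the letter matches found in Cyp2b10. The rows of Cyp2b9 and Cyp2b13 differ from Cyp2b10 at the same places (75.8% identity of aligned bases for both).

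The arrays were alike in brightness, with a median signal of 65.1 to 78.1, and 29.9% to 33.5% of each array's probe sets lay below a signal of 32, the floor to which low values were raised before the log2 was taken. For actin, the signal at the 3′ end over that at the 5′ end, a sign of RNA quality, was 3.24 to 3.90 in controls, 3.90 to 4.64 in SHS4m mice and 4.10 to 8.82 in recovery mice, and recovery replicate 72 was the array at 8.82. All 6 hepatocyte markers, among them Alb, Apoa1 and Ttr, were far above the floor on all 12 arrays. In whole liver tissue, fewer cells of a type and less RNA per cell cannot be told apart.

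Cyp2b10 was far higher at the end of exposure, by 17.3-fold to 19.7-fold over control on its 3 probe sets. On probe set 1425645_s_at the signal was 432.3, 443, 402.9 and 812.2 in controls 1 to 4, 8714, 8302, 8204 and 9485 in SHS4m mice 66 to 69, and 1866, 1519, 1158 and 1196 in recovery mice 70 to 73. Every SHS4m array stood above every recovery array, and every recovery array above every control, including the high control replicate 4. The other probe sets repeated this order of the 3 groups without overlap. On 1422257_s_at the signals were 310.5, 312.6, 335.2 and 583.3 in controls, 7554, 6728, 7177 and 7893 in SHS4m mice, and 1463, 1137, 858.9 and 972 in recovery mice. On 1451787_at they were 232.3, 227.9, 160.6 and 491.5 in controls, 4577, 4414, 4645 and 5365 in SHS4m mice, and 981.5, 751.6, 600 and 601.4 in recovery mice. The lowest recovery signal of this probe set (600) and the highest control signal (491.5) were the nearest neighbours in the order.

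**Figure D2:**
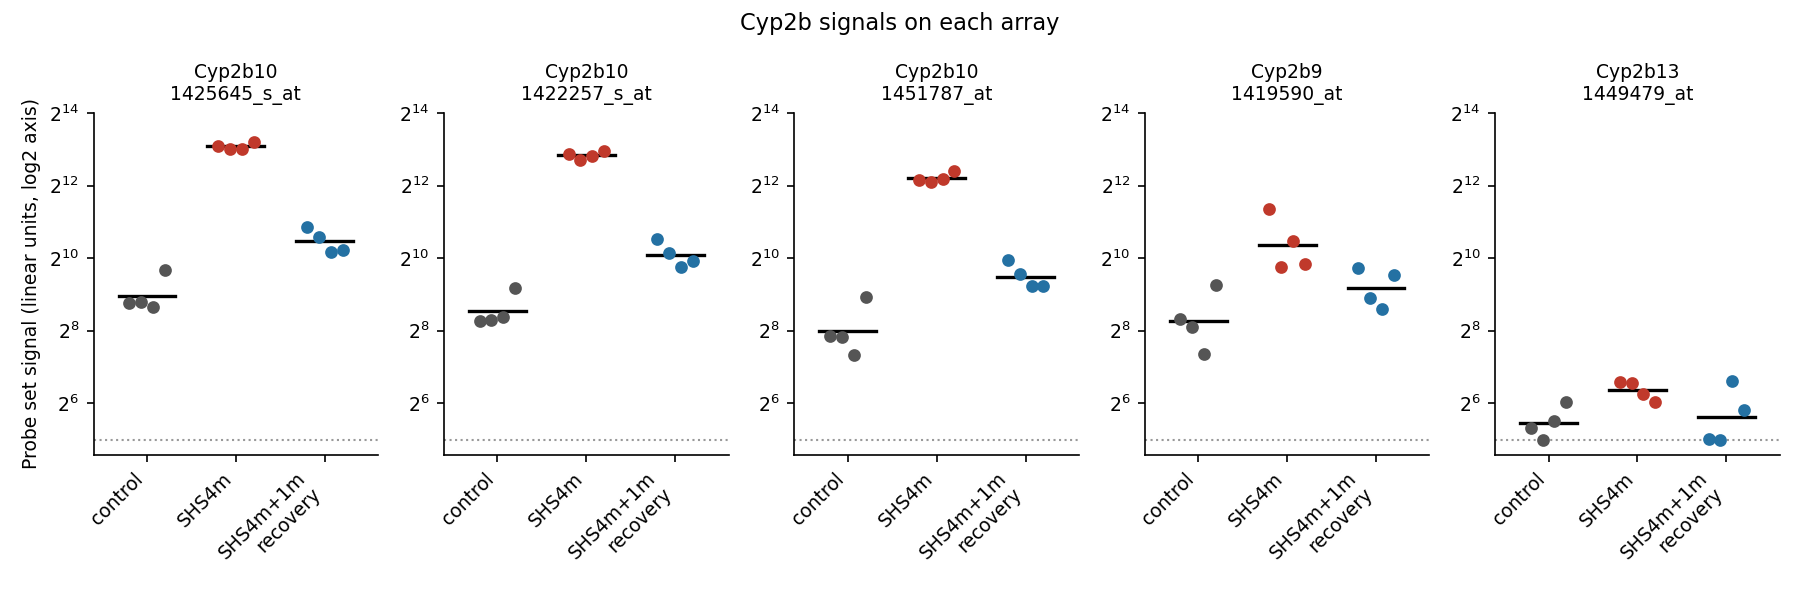
Probe set signal on each array (y axis, linear units drawn on a log2 axis) for the 5 Cyp2b probe sets, with the 3 groups of 4 arrays along the x axis. Each point is 1 array, bars are means of log2 signals, and the dotted line is the floor of 32, at which lower values are drawn. The groups are apart for all 3 Cyp2b10 probe sets, while the Cyp2b13 groups overlap.

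The log2 difference of SHS4m mice from controls was 4.11 (standard error 0.228, 95% interval 3.60 to 4.62), 4.30 (0.220, 3.81 to 4.80) and 4.22 (0.303, 3.54 to 4.90) on the 3 Cyp2b10 probe sets in the order above. Ranked by this difference among the 45037 probe sets, they were in places 5, 3 and 4. The sets 1425645_s_at and 1422257_s_at carry the suffix of probe sets whose probes can match several related transcripts, and 1451787_at does not. The 3 gave log2 differences within 0.189 of each other in every comparison.

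Cyp2b9 was higher at the end of exposure too, and more scattered between mice. Its signal (1419590_at) was 319.9, 274.1, 165.5 and 618 in controls, 2616, 865.8, 1414 and 923.9 in SHS4m mice, and 841.3, 474.1, 385.6 and 744.5 in recovery mice. All SHS4m arrays stood above all controls and all recovery arrays, but recovery arrays and controls overlapped. The SHS4m level was 4.26-fold the control level, a log2 difference of 2.09 (standard error 0.473, 95% interval 1.03 to 3.15). The study's list of genes changed both before and after recovery holds this probe set, under the names of both Cyp2b13 and Cyp2b9.

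Cyp2b13 was near the floor in all groups. Its signal (1449479_at) was 39.8, 14.04, 45.69 and 66.02 in controls, 96.94, 95.13, 76.95 and 65.07 in SHS4m mice, and 32.4, 30.09, 98.19 and 55.79 in recovery mice. The groups overlapped in all 3 comparisons, and the highest value of all was that of recovery replicate 72. The log2 difference of SHS4m mice from controls was 0.90 (standard error 0.365, 95% interval 0.08 to 1.72), and with the floor at 64 it was 0.35. Since Cyp2b9 and Cyp2b13 are close relatives, how far each probe set reads the other transcript was not tested.

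Thus 4 of the 5 Cyp2b probe sets, those of 2 of the 3 genes, did not overlap between SHS4m mice and controls and were higher in SHS4m mice, and across the array 5.53% of probe sets did so. After recovery 3 of the 5, all of Cyp2b10, still stood above all controls (3.59% of all probe sets), and 4 of the 5 stood below all SHS4m arrays. In this last comparison 9.17% of all probe sets did not overlap, counting both directions, and 4.7% of all probe sets did so with recovery mice higher. These shares are printed as background only, since the same contrasts chose the members.

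After 1 month in clean air Cyp2b10 lay between the SHS4m and the control level. The recovery mice were 2.81-fold to 2.93-fold above controls over the 3 Cyp2b10 probe sets, with log2 differences of 1.49, 1.55 and 1.50 and 95% intervals that span 0.82 to 2.18 in all. Against SHS4m mice their log2 difference was -2.62 (-3.13 to -2.11), -2.75 (-3.25 to -2.26) and -2.72 (-3.40 to -2.04), or 6.15-fold to 6.75-fold lower. On the log2 scale 36.3%, 36.0% and 35.5% of the difference seen at the end of exposure was left. Cyp2b10 was then in places 41 to 47 by its difference from control.

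For Cyp2b9 the recovery mice differed from controls by 0.92 on the log2 scale (95% interval -0.14 to 1.98) and from SHS4m mice by -1.17 (-2.23 to -0.11). Its share left, 43.9%, is a ratio of uncertain values, because the first interval holds 0. Cyp2b13 differed from controls by 0.14 (-0.68 to 0.96) and from SHS4m mice by -0.76 (-1.57 to 0.06), and its recovery difference turned to -0.20 without recovery replicate 72 and to -0.02 without control replicate 2. The comparisons of SHS4m and of recovery mice with controls share the same 4 control arrays.

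**Figure D3:**
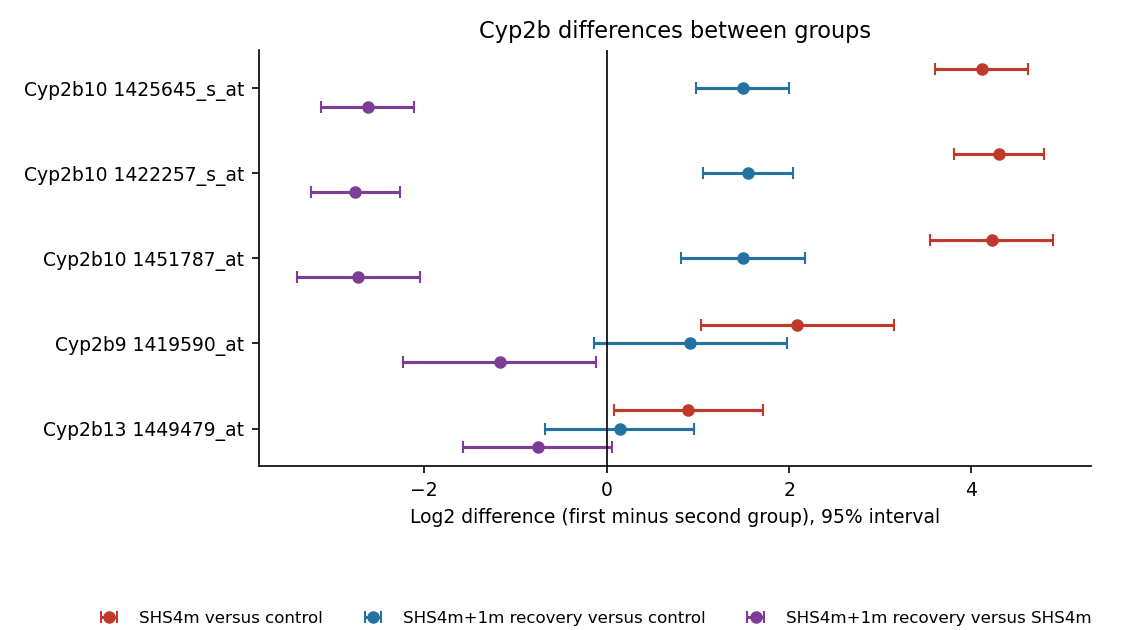
Log2 difference between groups (x axis) with its 95% interval for each Cyp2b probe set (y axis), for SHS4m versus control (red), recovery versus control (blue) and recovery versus SHS4m (purple). The differences of the 3 Cyp2b10 probe sets lie at 4.11 to 4.30, 1.49 to 1.55 and -2.75 to -2.62, and those of Cyp2b13 at 0.90, 0.14 and -0.76.

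The spread of Cyp2b10 between mice differed between the groups. The SD of its log2 signal over 4 arrays was 0.095 to 0.124 in SHS4m mice, 0.322 to 0.337 in recovery mice and 0.438 to 0.680 in controls. Without control replicate 4 the SD over the other 3 controls was 0.0711, 0.0612 and 0.3 on the 3 probe sets, below that of the SHS4m mice on the first and second. Control replicate 4 held the highest control signal for 5 of 5 member probe sets. That array was highest among controls for 5863 of 24204 probe sets above the floor on all controls (24.2%), and for 9 of 35 CAR and PXR target genes (25.7%). Without control replicate 4 the 3 Cyp2b10 differences of SHS4m mice from controls were at their largest, 4.35, 4.52 and 4.54.

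Deviations from the group mean ran together for the 3 Cyp2b10 probe sets (r = 0.892 to 0.971 over 12 arrays), and less so for Cyp2b9 with Cyp2b10 (r = 0.596 to 0.640). Those of Cyp2b13 had r of -0.123 to -0.045 with Cyp2b10 and 0.065 with Cyp2b9. In control replicate 4 and recovery replicate 70 both Cyp2b10 and Cyp2b9 lay above their group mean, while in SHS4m replicate 66 Cyp2b9 alone lay far above it. All these correlations are descriptions over arrays that share their scaling.

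**Figure D4:**
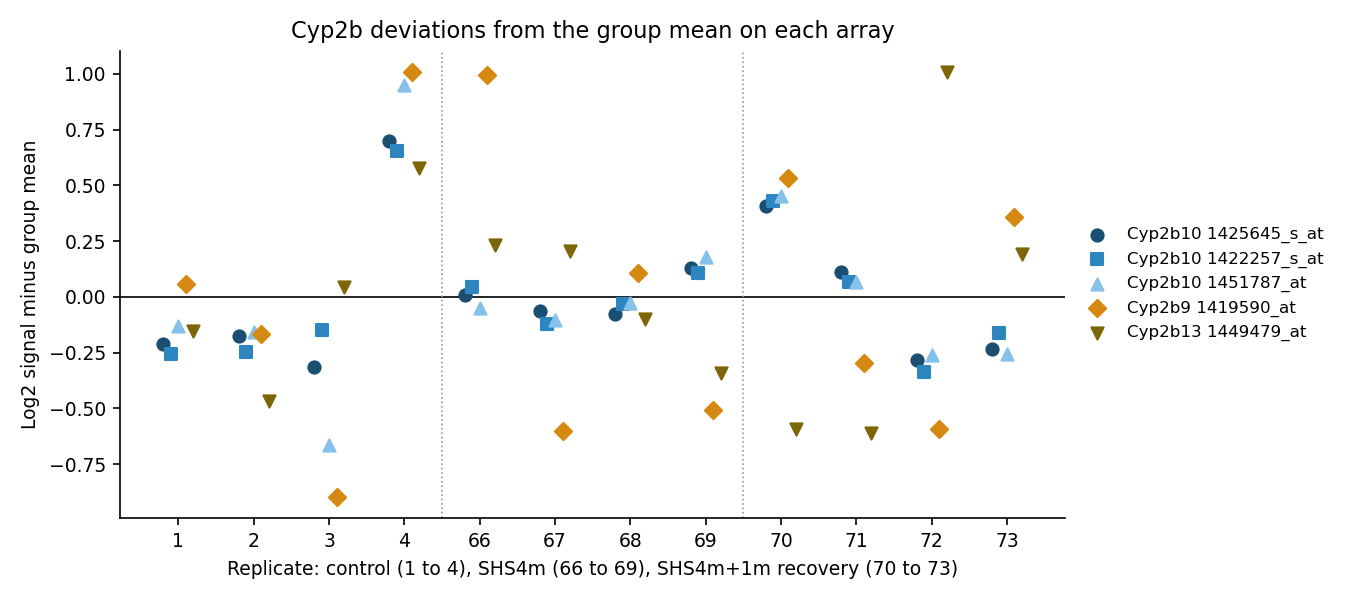
Log2 signal minus the group mean (y axis) for each Cyp2b probe set on each of the 12 arrays (x axis, replicate numbers, dotted lines between groups). Control replicate 4 lies above the group mean for all 5 probe sets, and the Cyp2b10 points of the SHS4m arrays lie close to 0.

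Among 28342 probe sets of other genes that were above the floor on at least 4 arrays, the patterns most like Cyp2b10 (1425645_s_at) over the 12 arrays belonged to Golga5, Wbp1l, Slc22a18, Crcp, Fkbp5, Asl, Gpt and Surf4, with r of 0.966 to 0.9585. Fkbp5, which encodes a co-chaperone of steroid receptors, had signals of 120.2, 132.5, 95.02 and 143.3 in controls, 390.5, 303.2, 364.3 and 321.3 in SHS4m mice, and 171.6, 207.5, 206.7 and 172.9 in recovery mice. Like Cyp2b10 it was highest in all SHS4m arrays and intermediate in all recovery arrays. Cyp2b9 held place 278 of this order (r = 0.862) and Cyp2b13 place 2069 (r = 0.609). By deviations from the group means alone the first 3 were 4930413G21Rik, Pecr and a dim probe set of Ahr (1450695_at, r = 0.930). The probe set of 4930413G21Rik is near the floor as well, with group means of 5.43 to 5.46 on the log2 scale. The genes most like Cyp2b9 over 12 arrays were Isca1, Sult1a1, Rhbdd2, Asl and Gna13 (r = 0.914 to 0.939), and those most like Cyp2b13 were Nrip1, Rasd1, Jph3, Zdhhc11 and Cpn2 (r = 0.868 to 0.912).

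Of the receptors that act on Cyp2b genes, PXR was called higher and CAR was not, and they were not tested against each other. Nr1i3, which encodes CAR, had signals of 1499, 1762, 1140 and 1368 in controls, 2216, 1924, 1773 and 1434 in SHS4m mice, and 2543, 1986, 1723 and 2224 in recovery mice, and the groups overlapped. Its log2 difference was 0.35 in SHS4m mice (standard error 0.174, adjusted p = 0.352 from limma) and 0.56 in recovery mice (adjusted p = 0.166). Nr1i2, which encodes PXR, had 869.2, 818.8, 911.9 and 981.3 in controls, 1406, 1452, 1265 and 1293 in SHS4m mice, and 1274, 1141, 1202 and 1053 in recovery mice. All SHS4m and all recovery arrays stood above all controls. It rose by 0.60 on the log2 scale in SHS4m mice (standard error 0.0746, adjusted p = 0.00254) and by 0.38 in recovery mice (adjusted p = 0.0349). The recovery call of Nr1i2 did not hold when control replicate 1, 2 or 3 or recovery replicate 70, 71 or 72 was left out (adjusted p 0.0689 to 0.0888), and adjusted p over all alternatives was 0.031 to 0.149. Rxra, the partner with which both receptors bind DNA, rose by 0.38 in SHS4m mice (adjusted p = 0.0018, and 0.0512 with the floor at each array's 25th percentile) and by 0.24 in recovery mice (adjusted p = 0.0305). Only 1 of the 3 Rxra probe sets, the brightest, was called in these comparisons. The recovery call of Rxra was lost in 11 of 17 alternatives, among them leaving out control replicate 1, 3 or 4 or recovery replicate 70, 71 or 73 (adjusted p 0.0631 to 0.0837).

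Of 17 measured genes among CAR, PXR and their partners, 3 rose and 1 fell in SHS4m mice, 2 rose in recovery mice, and 1 rose and 1 fell in recovery against SHS4m mice. The 2 recovery rises were those of Nr1i2 and Rxra, and 0 or 1 held when any single array was left out. Of all 18193 genes read by their brightest probe set, 7.47%, 2.52% and 3.68% were called in the same comparisons, in either direction. Those called higher were 3.73%, 1.37% and 2.01% of all genes, and those called lower 3.74%, 1.14% and 1.68%. The median log2 difference of the list was -0.02, 0.20 and 0.03, against -0.01, 0.00 and 0.00 over all genes. Ppargc1a, a coactivator of nuclear receptors, rose by 1.74 in SHS4m mice (adjusted p = 0.00422) and was lower by a log2 difference of -1.68 in recovery than in SHS4m mice (adjusted p = 0.00886). Nr0b2, which encodes the repressor SHP, had a log2 difference of -1.53 in SHS4m mice (adjusted p = 0.0122). Cebpa, a hepatocyte factor of the C/EBP family, was higher in recovery than in SHS4m mice by 0.80 (adjusted p = 0.0114).

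Other genes listed as targets of CAR and PXR rose with Cyp2b10 at the end of exposure, by less. Genes on this list can also answer to other factors, and which factor raised them was not tested. Of 37 measured targets, 17 rose and 0 fell in SHS4m mice (3.73% of all genes rose), with a median log2 difference of 0.40 against -0.01 over all genes. At an unadjusted p under 0.05 from limma, 20 were higher and 4 lower. The 17 were the P450 genes Cyp3a13, Cyp2c37, Cyp2c54, Cyp2c55 and Cyp1a2, the glutathione transferases Gsta2 and Gstm1 to Gstm4, the sulfotransferases Sult1d1 and Sult1e1, the transporters Abcb1a, Abcc3, Abcc4 and Slco1a4, and the epoxide hydrolase Ephx1. Gstm3 (1427474_s_at) had signals of 6651, 5988, 6678 and 6201 in controls, 32080, 26010, 26970 and 28980 in SHS4m mice, and 5652, 6853, 4376 and 5750 in recovery mice. It rose by 2.16 on the log2 scale (standard error 0.122, adjusted p = 8.43e-05), and its recovery arrays overlapped the controls. Cyp2c55 had 874.7, 788.8, 827.3 and 924.8 in controls, 1794, 2206, 2391 and 2370 in SHS4m mice, and 739, 667.7, 529.3 and 649.7 in recovery mice, a rise of 1.35 (adjusted p = 0.000496). Gstm2 rose by 1.66 (adjusted p = 0.000478) and Abcc4, an efflux transporter, by 1.65 (adjusted p = 0.00841). Other classical targets did not pass the test. Cyp3a11, the main PXR-inducible P450 of mouse liver, had a log2 difference of -0.28 (adjusted p = 0.256) and Cyp2c29 one of -0.05 (adjusted p = 0.744). Sult1e1 was at the floor on 6 of 12 arrays, and its rise of 1.20 (adjusted p = 0.0138) was 0.39 (adjusted p = 0.249) with the floor at 64.

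After recovery 1 of the 37 targets was higher than in controls and 0 were lower (2.52% of all genes were called), with a median log2 difference of 0.00. At an unadjusted p under 0.05 from limma, 6 were higher and 3 lower. The gene called was Abcb1a, which encodes a P-glycoprotein, with signals of 201.5, 243.8, 244.1 and 162.3 in controls, 440.6, 433.3, 393.1 and 304.4 in SHS4m mice, and 383.6, 340.9, 381 and 327.3 in recovery mice. Its recovery difference was 0.77 (standard error 0.154, adjusted p = 0.0385), and the call did not hold when any recovery array or control replicate 1, 3 or 4 was left out (adjusted p 0.06 to 0.0987), with 0.0274 to 0.0987 over all alternatives. Only 1 of the 2 Abcb1a probe sets was called in recovery mice. Abcc4 had a recovery difference of 0.68 (adjusted p = 0.29) and Abcc3 one of 0.57 (adjusted p = 0.0819). Against SHS4m mice 10 targets were lower and 0 higher in recovery mice (1.68% of all genes were lower), with a median of -0.24. The log2 difference was -2.35 for Gstm3, -2.01 for Gstm2, -1.76 for Cyp2c55 and -1.30 for Sult1e1 (adjusted p = 0.000103 to 0.0178). The Sult1e1 value is set by the floor and was -1.84 (adjusted p = 0.0769) with a floor of 16 and -0.39 (adjusted p = 0.328) with a floor of 64. Cyp2b10, on the same scale, kept a difference from control of 1.49 to 1.55, described above without a test. The list holds 45 genes, and those with no probe set naming them alone are not among the 37. Left out were Cyp2a5 and Cyp2a4, whose shared probe set was higher in recovery mice than in controls by 0.84 (adjusted p = 0.0484). The probe sets shared by Ugt1a1 and its relatives, also left out, were not called. Por was left out too, and the study lists it as higher before and after recovery.

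**Figure D5:**
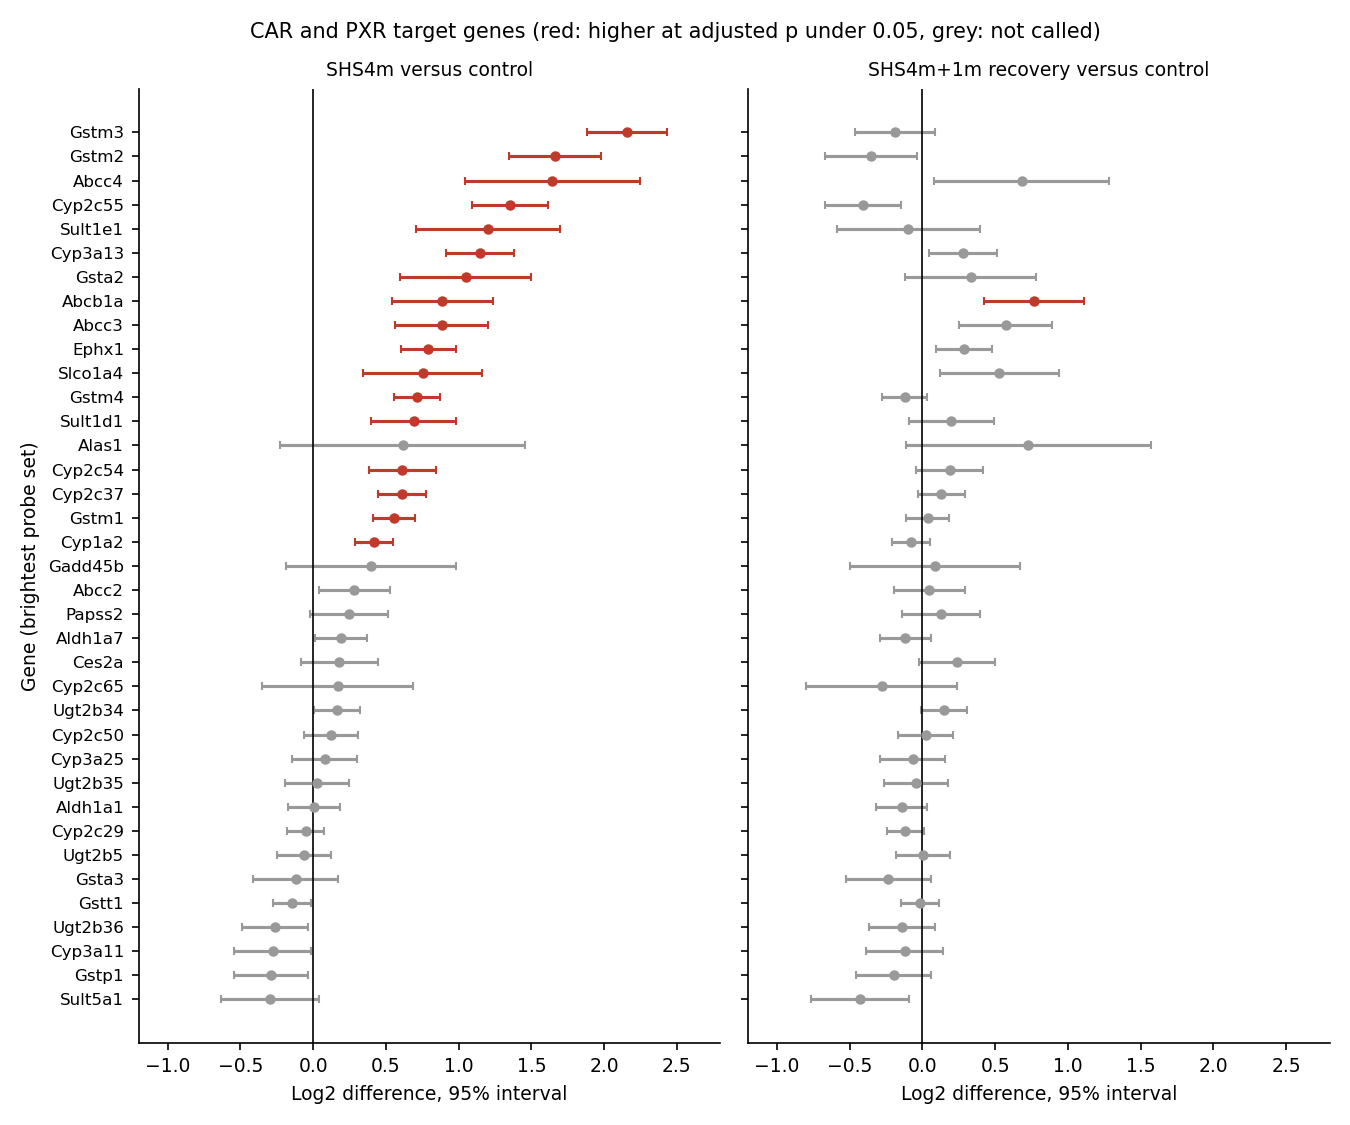
Log2 difference from control with its 95% interval (x axis) of the 37 measured CAR and PXR targets (y axis, ordered by the SHS4m difference), in SHS4m mice (left) and recovery mice (right). Red marks genes higher at an adjusted p under 0.05 from limma and grey the others. Of the 17 red genes on the left, Abcb1a is the one that is red on the right.

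Targets and regulators of the AhR, the receptor for the polycyclic aromatic hydrocarbons of smoke, were read beside the Cyp2b genes, since Cyp2b10 holds the core letters of AhR sites. Of 9 measured genes 5 rose in SHS4m mice and 0 fell (3.73% of all genes rose), with a median of 0.42. In recovery mice 0 were called by limma against controls (2 were higher and 0 lower at an unadjusted p under 0.05). Against SHS4m mice 3 were lower in recovery mice (1.68% of all genes were lower). The 5 rises became 2 without SHS4m replicate 66 or 67 or control replicate 3, and 3 without any other single array, and the 3 lower genes became 1 without SHS4m replicate 66 or 67. Ahr itself rose by 0.81 (adjusted p = 0.028), and its call held only without control replicate 4 among single arrays left out (adjusted p 0.0532 to 0.0745 without the others). The other of the 2 Ahr probe sets was not called. Cyp1a1, its best-known target, had signals of 86.21, 141.6, 101.2 and 128.3 in controls, 437.8, 404.2, 244.9 and 496.2 in SHS4m mice, and 95.87, 112.7, 17.14 and 121.9 in recovery mice. All SHS4m arrays stood above both other groups. Its rise of 1.77 (standard error 0.416, adjusted p = 0.0387) lost its call without SHS4m replicate 66, 67 or 69 or any of the 4 controls (adjusted p 0.0605 to 0.0982), with 0.00782 to 0.118 over all alternatives. Tiparp, which encodes a feedback repressor of the AhR, rose by 0.75 (adjusted p = 0.00318) and Cyp1a2 by 0.42 (adjusted p = 0.00392). Cyp1a2 was also counted among the CAR and PXR targets. Nqo1, a quinone reductase, rose by 0.94 (adjusted p = 0.0274), which did not pass without control replicate 3 or 4 or SHS4m replicate 66, 67 or 68 (adjusted p 0.0617 to 0.0752).

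P450 enzymes need haem and electron donors. Of 15 measured genes of this group, 3 rose and 1 fell in SHS4m mice (3.73% and 3.74% of all genes). In recovery mice 1 rose and 1 fell (1.37% and 1.14% of all genes). With centring, without dim probe sets or with the 25th percentile floor, 0 were called in recovery mice. Alas1, the first enzyme of haem synthesis and itself a CAR target, had signals of 17730, 21850, 8890 and 9705 in controls, 23420, 17850, 17790 and 24850 in SHS4m mice, and 31360, 30470, 11740 and 22410 in recovery mice. The groups overlapped, and its log2 differences of 0.62 in SHS4m mice (standard error 0.376, adjusted p = 0.476) and 0.73 in recovery mice (adjusted p = 0.462) did not pass the test. Hmox1, which breaks haem down, rose by 2.26 in SHS4m mice (adjusted p = 0.00684) and Hmox2 by 0.50 (adjusted p = 0.00668). Uros, in mid haem synthesis, had log2 differences of -0.59 in SHS4m mice (adjusted p = 0.00701) and -0.52 in recovery mice (adjusted p = 0.025), and the latter call was lost without control replicate 1 or 3 or recovery replicate 71, 72 or 73 (adjusted p 0.0576 to 0.0674). The other of the 2 Uros probe sets was not called in these comparisons. Por, the electron donor of microsomal P450 enzymes, was not read here, because no probe set names it in the probe-to-gene table used. The study lists Por among the genes higher both before and after recovery.

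Neighbours of the Cyp2b genes on chromosome 7 are also P450 genes for the most part. Of 6 measured neighbours, 2 rose at the end of exposure (3.73% of all genes) and 1 after recovery (1.37% of all genes). The 2 became 0 without SHS4m replicate 67 or 68 or control replicate 3 or 4. Cyp2g1 had signals of 390.9, 420.2, 254 and 257.7 in controls, 639.7, 679.2, 770.2 and 554.4 in SHS4m mice, and 1031, 616, 885.8 and 760.9 in recovery mice. Both SHS groups stood above all controls and overlapped each other, with rises of 1.03 (standard error 0.212, adjusted p = 0.0228) and 1.33 (adjusted p = 0.0167). The SHS4m call of Cyp2g1 was lost without SHS4m replicate 66, 67 or 68 or control replicate 3 or 4 (adjusted p 0.0548 to 0.0636), and its recovery call with only the 8 arrays compared (adjusted p = 0.0759). A probe set that names Cyp2a5 and Cyp2a4 together (1422230_s_at) had 24340, 28450, 14550 and 18260 in controls, 47100, 46120, 41790 and 46400 in SHS4m mice, and 38850, 39000, 38550 and 32470 in recovery mice. It rose by 1.13 in SHS4m mice (adjusted p = 0.00748) and by 0.84 in recovery mice (adjusted p = 0.0484), and which of the pair it reads cannot be told apart. The related Cyp2b19, at or below the floor on 6 of 12 arrays, had a log2 difference of 0.05 in SHS4m mice (adjusted p = 1). Cyp2f2 had -0.19 (adjusted p = 0.424), Cyp2a12 0.25 (adjusted p = 0.11) and Cyp2s1 -0.26 (adjusted p = 0.723). Egln2 rose by 0.44 (adjusted p = 0.0384), a call lost in 11 of 17 alternatives, among them without control replicate 1, 3 or 4 or SHS4m replicate 67, 68 or 69 (adjusted p 0.0652 to 0.0988).

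Because Cyp2b9 and Cyp2b13 are female-biased, other genes that differ between the sexes of mouse liver were read. Of 16 measured male-biased genes 0 rose and 6 fell in SHS4m mice (3.74% of all genes fell), with a median log2 difference of -0.64. In recovery mice 1 of them fell (1.14% of all genes). Of 13 measured female-biased genes 4 rose and 0 fell in SHS4m mice (3.73% of all genes rose), with a median of 0.56. In recovery mice 1 of them rose (1.37% of all genes). The 4 were Cyp39a1, Fmo1, Fmo2 and Sult1e1, and they became 2 with only the 8 arrays compared. Sult1e1 was also counted among the CAR and PXR targets, and its call was lost with the floor at 64 (adjusted p = 0.249). The recovery gene was Acot3, an acyl-CoA thioesterase, which was not called without control replicate 1 or 4, without any single recovery array or with only the 8 arrays compared (adjusted p 0.0513 to 0.0855). Hsd3b5, a male-specific steroid dehydrogenase, had signals of 19100, 15980, 17540 and 14830 in controls, 2159, 4620, 3511 and 4817 in SHS4m mice, and 9789, 13830, 16450 and 12380 in recovery mice. All SHS4m arrays stood below both other groups, and the log2 difference was -2.22 (standard error 0.252, adjusted p = 0.00165) in SHS4m mice and -0.38 (adjusted p = 0.614) in recovery mice. Elovl3, a male-biased fatty acid elongase, had -2.12 (adjusted p = 0.00396) and -1.99 (adjusted p = 0.0125). Among female-biased genes Cyp39a1, an oxysterol hydroxylase, rose by 1.78 in SHS4m mice (adjusted p = 0.00166), and Fmo2, a flavin monooxygenase, by 1.29 (adjusted p = 0.0257), a call lost without SHS4m replicate 66 or 67 or control replicate 2, 3 or 4 (adjusted p 0.0512 to 0.0628). Cyp3a16, Cyp3a44 and Hao2 had log2 differences of -0.10, 0.27 and -0.11 in SHS4m mice and did not pass the test (adjusted p = 0.612 to 0.985).

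Markers of other cell types were read beside these values. The summed signal of 3 measured adipocyte markers was 724 to 1028 in controls, 1602 to 2222 in SHS4m mice and 455 to 796 in recovery mice. It was highest in SHS4m mice, as Cyp2b10 was, but recovery mice overlapped controls. Of the 3 only Fabp4 was called, with a rise of 1.10 in SHS4m mice (adjusted p = 0.0169), while Adipoq was at the floor on 6 arrays and Lep on all 12. The summed signal of 6 B, T and NK cell markers was 887 to 1466 in controls, 521 to 689 in SHS4m mice and 902 to 1088 in recovery mice, with 1 marker, Ptprc, lower in SHS4m mice (log2 difference -0.73, adjusted p = 0.0166). The summed signal of the 6 hepatocyte markers was 330133 to 374649 in controls, 286609 to 309847 in SHS4m mice and 257336 to 408080 in recovery mice, with Fabp1 called lower in SHS4m mice (log2 difference -0.48, adjusted p = 0.0375). That of 7 pericentral hepatocyte markers was 105591 to 117645, 86299 to 100302 and 80942 to 113535, with Lgr5 called lower (-1.03, adjusted p = 0.0257). That of 6 periportal markers was 111936 to 124944, 123094 to 135170 and 101434 to 148485, with Pck1 called higher. That of 6 Kupffer cell and macrophage markers was 11495 to 14231, 9403 to 11870 and 9686 to 13276. Among them Marco was called higher (1.90, adjusted p = 0.0137) and Clec4f lower (-0.51, adjusted p = 0.0173) in SHS4m mice. No marker of endothelial cells, stellate cells or cholangiocytes was called. The 3′ to 5′ ratio of actin in SHS4m mice began just above the highest control, and that of Gapdh overlapped between these groups, with lowest values of 2.24 in SHS4m mice and 2.37 in controls. The part of these cells and of RNA quality in the Cyp2b differences was not tested.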

How the data were processed

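Affymetrix expression arrays measured liver RNA of 12 mice, in 3 groups of 4 taken from the labels. The deposited intensity values are on a linear scale, per array and probe set, and were made by the authors in Affymetrix Expression Console with the trimmed mean of each array set to a common value. No source used here names the summarisation algorithm. The 64 control probe sets of the array were left out, values under 32 were raised to 32, and log2 was computed from these deposited intensities. Differences, standard errors and 95% intervals came from limma 3.58.1 in R 4.3.3, fitted to all 45037 probe sets and the 3 groups in 1 model, with Benjamini-Hochberg adjustment over all probe sets at 0.05. All p-values are two-sided. The fit was tested on simulated data. The study's methods called genes at a 2-fold change with p under 0.05 and do not say whether the p was adjusted. Its lists of changed transcripts hold some with an adjusted p above 0.05, so the cutoff was on the unadjusted p. The number of arrays limits the precision.

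The members and the 9 gene lists were chosen with earlier results of these data known. For each listed gene the brightest of the probe sets naming that gene alone was used. Named genes were the members, Nr1i3, Nr1i2, Rxra, Por and Alas1, up to 4 called genes of each list per comparison by size of difference, all genes of lists of 8 or fewer, and the 8 (Cyp2b10) or 5 (Cyp2b9, Cyp2b13) genes most like a member by Pearson correlation. Some further genes were named after their values were seen, to describe a count. Probe sets that name several genes were read apart. Alternatives were floors of 16, 64 and each array's 25th percentile, median centring, quantile normalization, array weights, leaving out dim probe sets, only the 8 arrays compared, and leaving out each array. Promoter sequences are from RefSeq (GRCm38.p6), aligned in Biopython 1.88.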

Additional observations from a re-analysis of the deposited data

Results flagged for a closer look

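In 154 groups of 4 arrays of the named probe sets, 11 held an array that stood apart from its group by Dixon's test, where chance gives about 1 in 20 groups (7.7). Control replicate 4 was the high one of the controls for Cyp2b10, at 812.2 against 403 to 443 on 1425645_s_at and at 583.3 against 311 to 335 on 1422257_s_at. These values are described in the report.

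Low arrays were recovery replicate 72 for Rxra (5187) and Fmo2 (294.5), recovery replicate 70 for Pdk4 (23.28, under the floor), SHS4m replicate 67 for Gstm2 (4416), SHS4m replicate 68 for Tef (4754) and SHS4m replicate 69 for Nfil3 (662.8). Control replicate 3 was low for Cyp1a2 (28890) and Fmo1 (4066). SHS4m replicate 69 was high for Lpin1 (10770).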

How the results depend on the processing

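No paired analysis was possible because the groups share no replicate numbers. The Cyp2b10 differences kept their direction under all alternatives run, with 4.00 to 4.54 for SHS4m mice and 1.28 to 1.82 for recovery mice against controls over its 3 probe sets when each array was left out. Cyp2b13 in SHS4m mice moved from 0.90 to 0.35 with a floor of 64, and in recovery mice it ranged from -0.20 to 0.34 when each array was left out, with -0.20 and -0.02 without recovery replicate 72 and control replicate 2 and 0.34 without recovery replicate 71. The targets called were 16 to 17, 0 to 2 and 10 to 11 in the 3 comparisons when each array was left out. In recovery mice they were 0 with the 25th percentile floor and with only the 8 arrays compared, and 2 when any probe set of a gene could be called.

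Probe sets called in SHS4m mice numbered 2430, and 1520 with the 25th percentile floor, 1114 at an unadjusted p under 0.05 with a 2-fold change, and 1587 to 2041 without 1 array (1587 without control replicate 3). In recovery mice they numbered 931, and 475 with centring, 567 without dim probe sets, 365 with the 25th percentile floor, 258 with only 8 arrays, 619 at the unadjusted p and fold, and 438 to 817 without 1 array (438 without control replicate 3). Between recovery and SHS4m mice they numbered 1142, and 754 with centring, 642 with the 25th percentile floor, 680 with only 8 arrays, and 584 to 834 without 1 array (584 without recovery replicate 71). The cause was not tested. Centring moved the share of higher calls from 46.7% to 60.9% in SHS4m mice and from 42.4% to 57.3% in recovery mice, and the latter was 34.6% without dim probe sets. A probe set near the floor, such as that of Cyp2b13, shows only part of a change.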

Other observations

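Clock genes were read because PAR bZIP factors, which follow the clock, are known to act on drug-metabolising genes. Of 15 measured, 3 rose and 1 fell in SHS4m mice (3.73% and 3.74% of all genes). In recovery mice 3 rose and 1 fell against controls (1.37% and 1.14% of all genes). The 3 rises became 1 in SHS4m mice without SHS4m replicate 67, and 1 in recovery mice without any single array other than control replicate 2. With only the 8 arrays compared, 1 rose at the end of exposure and 0 after recovery. By limma 0 were called between recovery and SHS4m mice (2 higher and 1 lower at an unadjusted p under 0.05). Ciart, a clock repressor, rose 6.62-fold (adjusted p = 0.0215) in SHS4m mice and Tef, a PAR bZIP factor, by 1.05 on the log2 scale (adjusted p = 0.0126). Only 1 of the 3 Tef probe sets was called in SHS4m mice. Clock had a log2 difference of -1.02 in SHS4m mice (adjusted p = 0.0119) and -1.18 in recovery mice (adjusted p = 0.0145). The time of day at which livers were taken is not stated in the sources used here, and its part was not tested. The SHS4m call of Ciart was lost without SHS4m replicate 67 or 68 or control replicate 3 or 4 (adjusted p 0.0547 to 0.0591).

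Fasting is known to raise Cyp2b10 in mouse liver. Of 14 measured fasting-induced genes 4 rose in SHS4m mice and none fell (3.73% of all genes rose), with a median log2 difference of 0.85. The 4 were Igfbp1, Lpin1, Ppargc1a and Pck1, and the Lpin1 call was lost in 7 of 17 alternatives. Igfbp1 had signals of 1045, 2335, 3896 and 852.6 in controls, 18900, 21530, 26190 and 11780 in SHS4m mice, and 396.1, 525.3, 2597 and 1228 in recovery mice. It rose by 3.48 in SHS4m mice (adjusted p = 0.016) and had a log2 difference of -4.38 in recovery against SHS4m mice (adjusted p = 0.00995). Pck1, a gluconeogenic enzyme, rose by 1.20 in SHS4m mice (adjusted p = 0.0126). Fgf21, a fasting hormone, had a log2 difference of -0.89 (adjusted p = 0.529). The study gave all mice free access to food, and it reports almost no weight gain during exposure. The part of food intake in the Cyp2b10 values was not tested.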
